A study of Homo sapiens with 9 samples.

Results

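The genes described here are 10 members of the BCR-ABL to STAT5 signalling axis, chosen by name with earlier results of these data known. These are BCR, ABL1, STAT5A, STAT5B, PIM1, PIM2, SOCS2, CISH, BCL2L1 and MCL1. They are 10 of the 58347 gene rows of the deposited count table, and 10 of 10 passed the filter on low counts that 23675 genes passed. RNA was sequenced from 9 libraries of K562, a human erythroleukaemia line that carries the BCR-ABL fusion. The cells were of the K562-FIRE type, which bears dCas9 (a Cas9 that binds DNA without cutting it), MS2-Fkbp(1x) and SS18-Frb, each driven by an EF1a promoter. The dCas9 and SS18-Frb constructs are lentiviral, and the 3 carry resistance to blasticidin, hygromycin and, from a PGK promoter, puromycin. Rapamycin joins Fkbp to Frb and so can bring SS18, a subunit of the BAF chromatin remodelling complex, to the site a guide RNA marks; it also inhibits mTORC1. Cells carried an sgRNA against the promoter of HBG1, or a non-targeting (NT) sgRNA, and were kept in 10 nM rapamycin or in DMSO for 24 h. There were 3 rapamycin and 3 DMSO libraries of the HBG1 sgRNA, and 2 rapamycin libraries and 1 DMSO library of the NT sgRNA. The labels do not say whether the cells came from 1 clone or whether replicates were separate cultures, so the p-values measure the spread between these libraries, which may be technical.

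BCR-ABL is the constitutively active tyrosine kinase that results from the joining of the 5′ part of BCR to the 3′ part of ABL1 on the Philadelphia chromosome. It phosphorylates STAT5A and STAT5B, which then enter the nucleus and activate genes of survival (BCL2L1, MCL1 and the PIM kinases) and of negative feedback (CISH and SOCS2). K562 cells depend on this kinase for growth. The counts are of RNA and carry no information on phosphorylation of any of these proteins.

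The libraries held between 19797409 and 31619671 counts, and each member had between 1308 and 18322 counts in every library. Levels below are in CPM, counts scaled to a common library size, after TMM scaling, which corrects for differences in library composition. The erythroid markers GATA1 (190 to 273 CPM), TAL1, KLF1, HBE1 and ALAS2 were present in all 9 libraries. Of 9 markers of T cells, mature myeloid cells and epithelium, 6 were under 1 CPM in every library; the others were EPCAM (36.9 to 49.98 CPM), CD3D (4.1 to 6.04) and CD14 (0.0492 to 1.22). HBG1 itself, the target of the guide, stood at 137 to 436 CPM with its own guide under DMSO, 1533 to 2448 under rapamycin and 8233 to 8944 in the 3 NT libraries. In bulk RNA, fewer cells that express a gene and less of its RNA per cell cannot be told apart.

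Rapamycin moved a minority of the members with the HBG1 sgRNA. PIM1 and CISH passed the test as higher, with log2 fold changes of 0.45 and 0.29, and none passed as lower. That is 2 of 10 members, against 6.80% of all tested genes in either direction, 2.75% higher and 4.05% lower (edgeR quasi-likelihood test, adjusted p under 0.05 by Benjamini-Hochberg over all tested genes). That share includes genes of low counts, which the members are not. With the filter at a minimum count of 50, 1782 of 16350 genes passed, 2 of them members. DESeq2 (2093 of 15952 genes called) and limma-voom (1739 of 23675) also called PIM1 and CISH and no other member. In edgeR 3 members were under an unadjusted p of 0.05, against 20.8% of genes. The median log2 fold change over the members was 0.05, with 6 positive and 4 negative, against 0.02 over all tested genes. By number, replicates 1, 2 and 3 were taken as pairs of HBG1 sgRNA libraries across treatments. Deviations from the group means correlated within each number. For replicates 2 and 3 the correlation was 0.278 and 0.231 within a number, and 0.258 and 0.194 when crossed. The check thus told only replicate 1 apart. With that pairing as a replicate block, fitted on the 6 HBG1 sgRNA libraries, BCL2L1 also passed as higher and MCL1 as lower, 4 of 10 members (3 higher, 1 lower) against 17.1% of genes in that fit (7.43% higher, 9.62% lower). With the block over all 9 libraries, BCL2L1 (adjusted p 0.104) and MCL1 (0.0833) did not pass.

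**Figure D1:**
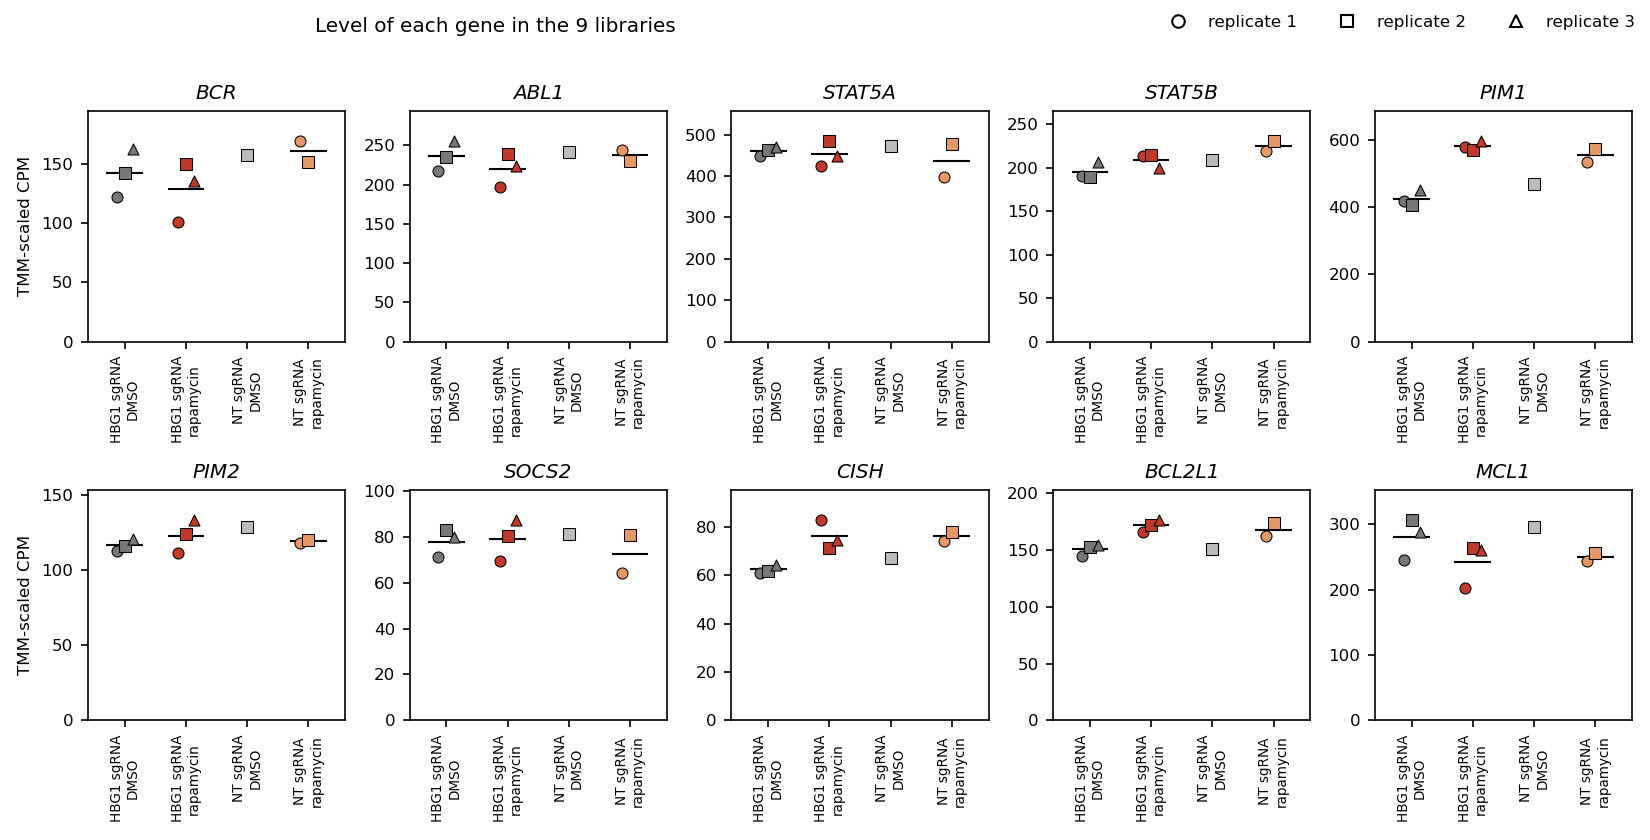
TMM-scaled CPM of each member (vertical axes, each starting at 0) in the 9 libraries by group, with 1 point per library, a marker shape per replicate number and a line at the mean of groups with more than 1 library. The rapamycin points of PIM1, CISH and BCL2L1 with the HBG1 sgRNA lie above all 3 DMSO points, and those of the other 7 members overlap them.

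Neither of the fusion partners passed. BCR (ENSG00000186716; chromosome 22, 23179704 to 23318037, plus strand, GRCh38), a protein with a coiled coil that lets the fusion kinase oligomerise, was at 122, 142.5 and 162 CPM in HBG1 sgRNA DMSO replicates 1, 2 and 3 and at 101, 149.9 and 136 CPM in the rapamycin replicates. Replicate 1 was the lowest library of both groups, and the groups overlapped. The log2 fold change was -0.14 (SE 0.12, adjusted p 0.577), lower in 2 of 3 pairs. The NT libraries stood at 169 and 152 CPM under rapamycin and 157 under DMSO, a log2 difference of 0.03 with no replicate check.

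ABL1 (ENSG00000097007; chromosome 9, 130713946 to 130887675, plus strand) encodes the tyrosine kinase that the fusion deregulates. It stood at 218, 236 and 255 CPM under DMSO and at 197, 239 and 224 CPM under rapamycin with the HBG1 sgRNA. The groups overlapped, with replicate 1 again lowest in each, and the log2 fold change was -0.10 (SE 0.08, adjusted p 0.540). Without 1 library it ran from -0.169 (rapamycin replicate 2) to -0.030 (rapamycin replicate 1). The NT libraries were at 244 and 231 CPM under rapamycin and 241 under DMSO.

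Reads of the BCR-ABL fusion transcript fall within both genes, and the table does not separate them from reads of unfused BCR or ABL1. A ratio within a library needs no scaling, so the BCR to ABL1 ratio of counts was taken. It was 0.562, 0.604 and 0.635 under DMSO and 0.512, 0.628 and 0.607 under rapamycin with the HBG1 sgRNA, and 0.692, 0.658 and 0.653 in the NT libraries (rapamycin replicates 1 and 2, then DMSO). The HBG1 sgRNA groups overlapped: rapamycin minus DMSO was -0.05 on the log2 scale (two-sided exact permutation test, p = 0.7, where 3 against 3 cannot go below 0.1).

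Of the STAT5 transcription factors, neither passed. STAT5A (ENSG00000126561; chromosome 17, 42287547 to 42311943, plus strand) and STAT5B (ENSG00000173757; chromosome 17, 42199168 to 42276707, minus strand) are neighbouring genes of similar sequence, whose reads may in part map to both. STAT5A was at 448, 462 and 470.2 CPM under DMSO and at 425, 484 and 448 CPM under rapamycin with the HBG1 sgRNA. The rapamycin libraries lay on both sides of the DMSO range, and the fitted change of -0.03 (log2, SE 0.08, adjusted p 0.898) turned to 0.01 with upper-quartile scaling. In the NT libraries STAT5A was at 397 and 477 CPM under rapamycin and 472 under DMSO.

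STAT5B was at 191, 189 and 207 CPM under DMSO and at 213, 214 and 199 CPM under rapamycin. Rapamycin replicates 1 and 2 were above all DMSO libraries and replicate 3 was within their range. The log2 fold change was 0.10 (SE 0.07, adjusted p 0.484), higher in 2 of 3 pairs, and 0.11 between the NT libraries (219 and 230.4 CPM under rapamycin, 209 under DMSO).

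Among the PIM kinases, serine/threonine kinases that promote survival and are controlled mainly through their transcription, PIM1 rose and PIM2 did not pass. PIM1 (ENSG00000137193; chromosome 6, 37170203 to 37175426, plus strand) stood at 417, 407 and 449 CPM under DMSO and at 577, 569 and 595 CPM under rapamycin with the HBG1 sgRNA. The lowest rapamycin library was above the highest DMSO library. The means were 425 ± 22.2 and 580.1 ± 13.6 CPM (SD, n = 3 each), 1.37-fold apart (log2 fold change 0.45, SE 0.07, adjusted p 0.00106), higher in 3 of 3 pairs. PIM1 kept its call under 21 of 21 alternative settings, with log2 fold changes from 0.39 to 0.49 and adjusted p up to 0.0136.

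With the NT sgRNA, PIM1 was at 535 and 571 CPM under rapamycin and at 468 CPM in the DMSO library, a log2 difference of 0.24 with no replicate check. Both NT rapamycin libraries were thus above the single NT DMSO library and above all 3 HBG1 sgRNA DMSO libraries. The rapamycin change was larger by 0.21 (SE 0.12) on the log2 scale with the HBG1 sgRNA, a difference that did not pass (unadjusted p 0.104, adjusted p 1.00, edgeR interaction term; the single NT DMSO library takes its spread from the other groups).

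PIM2 (ENSG00000102096; chromosome X, 48913182 to 48919024, minus strand) was at 113, 116 and 121 CPM under DMSO and at 111, 124 and 133 CPM under rapamycin. The rapamycin libraries spanned the whole DMSO range, and the log2 fold change was 0.08 (SE 0.08, adjusted p 0.643). Without 1 library it ran from 0.013 (rapamycin replicate 3) to 0.142 (rapamycin replicate 1). With the NT sgRNA the values were 118 and 120.3 CPM under rapamycin and 128 under DMSO, a log2 difference of -0.11.

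Of the feedback inhibitors, CISH rose and SOCS2 did not pass. CISH and SOCS2 belong to the SOCS family, whose SH2 domains bind phosphorylated cytokine receptors and damp signalling. CISH (ENSG00000114737; chromosome 3, 50606490 to 50611831, minus strand) is a widely used marker of STAT5 activity, and the sequence before its start is shown because it holds repeated copies of the STAT5 recognition motif. The motif searched was TTCNNNGAA, which reads the same on both strands, in the 250 bases before the RefSeq start. CISH has 4 copies, at 241, 230, 129 and 112 bases before the start. They lie in 2 pairs, printed 5′ to 3′ on the minus strand of GRCh38.p14 (RefSeq) with the motifs in capitals, at chr3:50611996-50612015 and chr3:50611832-50611907.
CISH distal pair: TTCCTGGAAagTTCTTGGAA
CISH proximal pair: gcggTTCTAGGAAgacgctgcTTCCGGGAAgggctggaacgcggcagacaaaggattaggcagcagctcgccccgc
PIM1, the other member called higher, has no copy in its 250 bases, chr6:37169902-37170151 on the plus strand.
PIM1 upstream: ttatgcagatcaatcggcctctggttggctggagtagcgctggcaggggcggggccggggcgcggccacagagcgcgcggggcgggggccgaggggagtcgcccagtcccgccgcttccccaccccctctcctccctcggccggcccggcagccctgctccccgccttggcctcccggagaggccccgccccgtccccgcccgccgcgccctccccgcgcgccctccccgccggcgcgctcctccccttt
Of the 10 members, 8 had an upstream window in the RefSeq table (11 windows in all) and only CISH held the motif in them. Of 35116 such windows over all genes, 6.57% hold at least 1 copy and 5 windows (0.014%) hold 4 or more. A match of letters is no measurement of binding, and sites outside these windows were not searched.

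CISH was at 61.1, 62.0 and 64.3 CPM under DMSO and at 82.8, 71.1 and 74.6 CPM under rapamycin with the HBG1 sgRNA. The groups did not overlap, and rapamycin replicate 1 was the highest library of the 9. The means were 62.5 ± 1.66 and 76.2 ± 6.02 CPM (SD, n = 3 each), 1.22-fold apart (log2 fold change 0.29, SE 0.08, adjusted p 0.0420), higher in 3 of 3 pairs. This call was close to the threshold. It was lost without HBG1 sgRNA DMSO replicate 1, 2 or 3, HBG1 sgRNA rapamycin replicate 1 or 3, or NT rapamycin replicate 1 or 2 (adjusted p 0.0598 to 0.140), and without both HBG1 sgRNA replicate 1 libraries (log2 fold change 0.21, adjusted p 0.146). With the replicate block it held (0.29, adjusted p 0.00731).

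The NT libraries of CISH stood at 74.2 and 78.0 CPM under rapamycin and at 67.2 CPM under DMSO, a log2 difference of 0.18. All 5 rapamycin libraries of both guides were therefore above all 4 DMSO libraries for this gene. CISH shares 218 exon bases with MAPKAPK3, a kinase gene on the opposite strand, and the strand setting of the counting is not given in the sources used here. MAPKAPK3 had a log2 fold change of -0.13 (adjusted p 0.413), opposite in sign to CISH.

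SOCS2 (ENSG00000120833; chromosome 12, 93569814 to 93583487, plus strand) was at 70.9, 82.9 and 79.7 CPM under DMSO and at 69.3, 80.3 and 87.2 CPM under rapamycin with the HBG1 sgRNA. Replicate 1 was lowest in each group and the groups overlapped (log2 fold change 0.02, SE 0.10, adjusted p 0.939). In the NT libraries it was at 64.1 and 80.8 CPM under rapamycin and 81.1 under DMSO. SOCS2 shares 277 exon bases with its antisense gene SOCS2-AS1, which was at 7.64 to 13.3 CPM in the 9 libraries.

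The survival genes of the BCL2 family had changes of opposite sign, and whether they passed differed between fits. BCL2L1 (ENSG00000171552; chromosome 20, 31664452 to 31723989, minus strand), which encodes the anti-apoptotic BCL-XL, was at 145, 153 and 155 CPM under DMSO and at 166, 172 and 176 CPM under rapamycin with the HBG1 sgRNA. The groups did not overlap, and the rapamycin library was higher in 3 of 3 pairs. The log2 fold change was 0.19 (SE 0.07, adjusted p 0.127) without the block and 0.19 (SE 0.06, adjusted p 0.0251) with it on the 6 HBG1 sgRNA libraries, and the adjusted p was 0.104 with the block over 9 libraries. The NT libraries were at 162 and 174 CPM under rapamycin and 151 under DMSO, a log2 difference of 0.16. BCL2L1 shares 1424 of its 3314 exon bases with the antisense gene ABALON, whose log2 fold change was 0.17 (adjusted p 0.392). With the strand setting not given, the counts of each gene may hold reads of the other, or lack reads from the shared bases. This limit also holds for the BCL2L1 to MCL1 ratio and for the level of BCL2L1 per length.

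MCL1 (ENSG00000143384; chromosome 1, 150574551 to 150579738, minus strand), an anti-apoptotic protein with a short half-life, was at 245, 307 and 289 CPM under DMSO and at 203, 264 and 261 CPM under rapamycin. Replicate 1 was the lowest library in both groups, so the groups overlapped, yet rapamycin was lower in 3 of 3 pairs (log2 differences of -0.27, -0.21 and -0.15). The log2 fold change was -0.21 (SE 0.10, adjusted p 0.261) without the block and -0.20 (SE 0.06, adjusted p 0.0172) with it on the 6 HBG1 sgRNA libraries, and the adjusted p was 0.0833 with the block over 9 libraries. Without HBG1 sgRNA rapamycin replicate 1 the unblocked value was -0.093, without DMSO replicate 2 it was -0.135 and without DMSO replicate 1 it was -0.292. The NT libraries were at 243 and 257 CPM under rapamycin and 295 under DMSO, a log2 difference of -0.24.

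With 3 of 10 members, PIM1, CISH and BCL2L1, the HBG1 sgRNA groups did not overlap, all with rapamycin higher. Over all tested genes 25.3% did not overlap in either direction and 12.2% did not with rapamycin higher. Over both guides, 7 of 10 members had rapamycin changes of the same sign, as did 68.0% of all tested genes. The NT change averages both NT rapamycin libraries, while the NT DMSO library was replicate 2 only. Against NT DMSO replicate 2, NT rapamycin replicate 2 alone was lower for BCR (151.7 against 157.5 CPM) and higher for STAT5A (476.6 against 472.5 CPM). Both are opposite in sign to the averaged NT change, so the sign of small NT changes is uncertain.

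**Figure D2:**
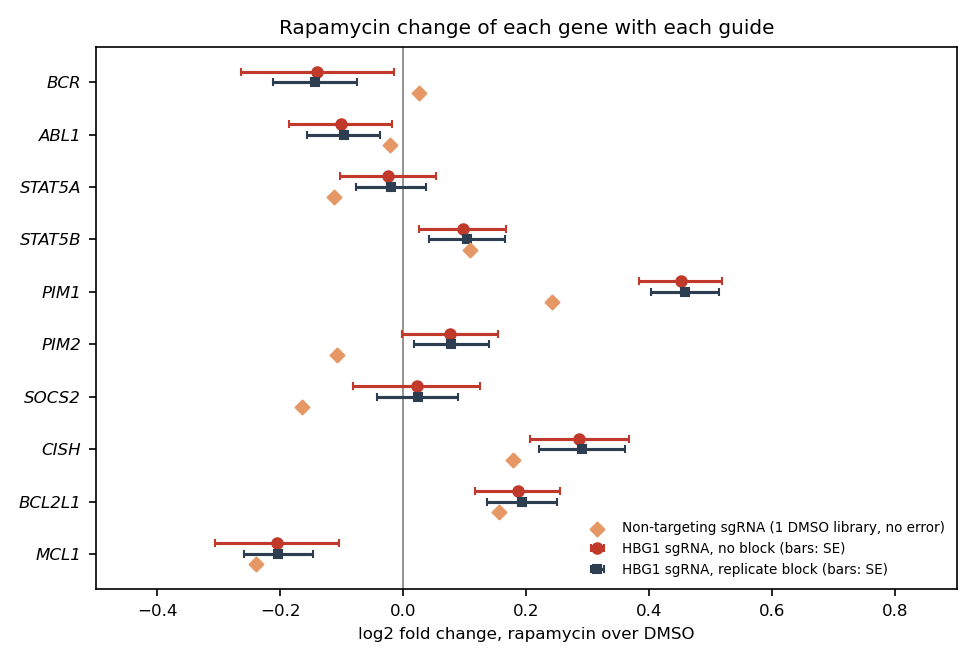
Log2 fold change of rapamycin over DMSO (horizontal axis) for each member, with the HBG1 sgRNA without the replicate block (circles) and with it (squares), bars giving the SE, and with the NT sgRNA (diamonds, no error since 1 DMSO library). PIM1 lies farthest from 0 with the HBG1 sgRNA, at 0.45. With the NT sgRNA PIM1 is at 0.24 and MCL1 at -0.24. BCR, PIM2 and SOCS2 have opposite signs with the 2 guides when both NT rapamycin libraries are averaged.

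The BCL2L1 to MCL1 ratio of counts, taken within each library, joined these opposite changes. With the HBG1 sgRNA it was 0.591, 0.499 and 0.536 under DMSO and 0.818, 0.653 and 0.675 under rapamycin, with no overlap. The difference of 0.40 on the log2 scale is 1.32-fold (two-sided exact permutation test, p = 0.1, the smallest that 3 against 3 allows). The NT libraries had ratios of 0.666 and 0.675 under rapamycin and 0.510 under DMSO, so that the lowest of 5 rapamycin ratios was above the highest of 4 DMSO ratios. HBG1 sgRNA replicate 1 had the highest ratio in its group under both treatments.

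**Figure D3:**
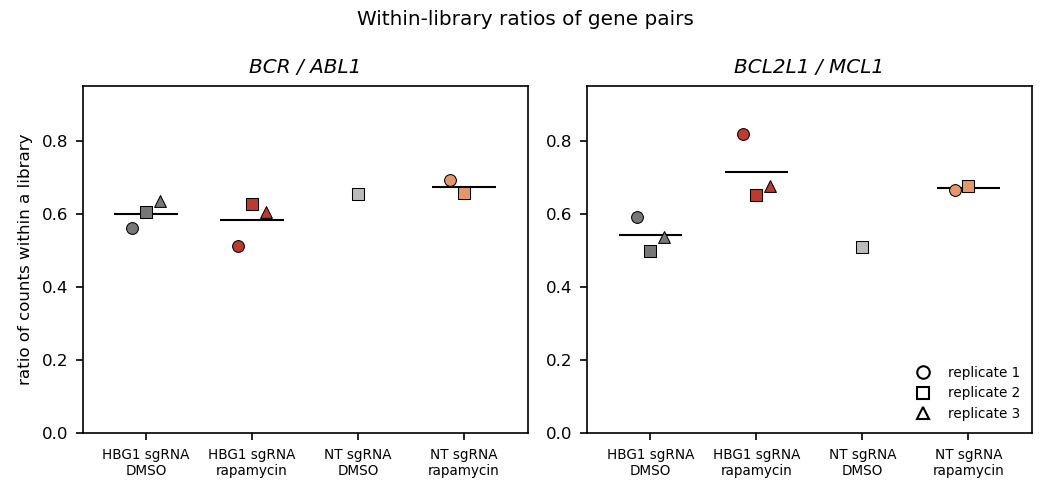
Ratio of counts of BCR to ABL1 (left) and of BCL2L1 to MCL1 (right) within each of the 9 libraries, by group, with marker shapes for replicate numbers and lines at the means of groups with more than 1 library. The BCR to ABL1 ratios overlap between treatments with the HBG1 sgRNA, whereas the BCL2L1 to MCL1 ratios run from 0.499 to 0.591 in the 4 DMSO libraries and from 0.653 to 0.818 in the 5 rapamycin libraries.

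Between guides under rapamycin (3 against 2 libraries), 0 of 10 members passed, against 0.0296% of tested genes, with the lowest adjusted p at 0.773 (edgeR). At an unadjusted p under 0.05 there was 1 member, BCR, against 6.27% of genes, and DESeq2 and limma-voom also called 0 members. BCR had a log2 fold change of HBG1 sgRNA over NT sgRNA of -0.31 (SE 0.14, unadjusted p 0.0363, adjusted p 0.773). The value ran from -0.44 to -0.17 when single libraries were left out. For the interaction of guide and rapamycin 0 of 10 members passed, against 0.00422% of genes, and 0 were under an unadjusted p of 0.05, against 2.86% of genes; DESeq2 and limma-voom called 0 members there too.

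Compared per length, as TPM, which divides counts by the annotated exon bases, the members differed widely in level. PIM1 was the most abundant, with a median of 354 TPM over the 9 libraries (277 to 419), and was above each other member in all of them. STAT5A followed at 164 TPM, then MCL1 at 125, BCL2L1 at 96.5, PIM2 at 88.0, ABL1 at 76.7 and STAT5B at 65.5. The ranges of neighbours in this order overlapped from STAT5A to STAT5B, although STAT5A was above MCL1, and PIM2 above ABL1, in 9 of 9 libraries. CISH (28.6 TPM), BCR (24.3) and SOCS2 (24.2) formed a lower set whose ranges lay below that of STAT5B. BCR was above SOCS2 in 5 of 9 libraries, so these neighbours could not be ordered. The divisor counts every annotated exon base of a gene, at 12389 for BCR, 6776 for SOCS2, 5112 for CISH and 2977 for PIM1. For CISH this is nearly its whole span of 5.3 kb. Which transcripts were present was not measured, so the order holds for this divisor only.

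The genes whose log2 CPM over the 9 libraries was most like that of PIM1, out of 15177 compared, were OSMR (Pearson r 0.980), TM7SF2 (0.976) and GOLGA8N (0.975). In that order they stood at 4.76 to 9.82, 14.4 to 23.4 and 1.71 to 4.94 CPM, far below PIM1 (407 to 595 CPM). OSMR encodes the receptor of oncostatin M, a cytokine of the IL-6 family. For CISH they were SLC25A6 (0.966), NDRG2 (0.966) and CBY1 (0.962, at 5.07 to 10.2 CPM). For BCL2L1 they were MRAP2 (0.970), CTNNBIP1 (0.963) and STXBP2 (0.963). The 9 libraries fall into treatment groups, which all these correlations share, and they describe these libraries only.

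The other genes of the pathway were taken from lists made by known role, with earlier results of these data known. Of 30 BCR-ABL adaptors and cascade genes, 30 were tested, 0 passed as higher and 3 as lower with the HBG1 sgRNA, against 2.75% and 4.05% of all tested genes, and the median log2 fold change was -0.05 against 0.02 over all tested genes. The 3 were CRKL, the adaptor whose phosphorylation is the usual readout of BCR-ABL activity, its relative CRK, and PTPN11, which encodes the phosphatase SHP2. CRKL fell from 477 ± 14.7 to 389 ± 20.1 CPM (SD, n = 3 each), -0.29 on the log2 scale (SE 0.07, adjusted p 0.0162). CRK fell from 50.4 ± 3.64 to 39.3 ± 3.65 CPM (-0.36, SE 0.09, adjusted p 0.0305) and PTPN11 from 187 ± 17.3 to 152 ± 13.1 CPM (-0.30, SE 0.09, adjusted p 0.0422). DESeq2 and limma-voom each called 4 as lower, these 3 and the adaptor GRB2, and 0 as higher. Over all genes DESeq2 called 1259 of 15952 as lower and limma-voom 1074 of 23675. With the replicate block 8 of 30 passed as lower and 0 as higher, against 9.62% of genes lower in that fit.

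Of 19 cytokine receptors, JAKs and other STATs, 15 were tested and 0 passed, against 6.80% of all tested genes. There were 2 under an unadjusted p of 0.05, against 20.8% of genes, and DESeq2 and limma-voom called 0 as well. The lowest p was that of IL2RG, the common gamma chain of cytokine receptors, at 4.62 ± 1.21 and 7.30 ± 0.616 CPM (SD, n = 3 each; log2 fold change 0.65, adjusted p 0.0733). With the block IL2RG passed (0.68, adjusted p 0.0141), 1 of 2 genes of the list that did (of 13 in that fit), both higher, against 7.43% of genes higher. Of 15 SOCS and other JAK-STAT inhibitors, all were tested and 0 passed, against the same 6.80%. There were 3 under an unadjusted p of 0.05, against 20.8% of genes, and 0 called by DESeq2 or limma-voom. PTPN1, a phosphatase that acts on JAK2, had the lowest p (log2 fold change -0.24, adjusted p 0.0898) and passed with the block (-0.24, adjusted p 0.00964), 1 of 2 of the 15 that did, both lower, against 9.62% of genes lower. Also under an unadjusted p of 0.05 were 12 of 30 BCR-ABL adaptors and cascade genes and 4 of 8 other STAT5 targets. The ERK list had 2 of 14 and the other BCL2 family genes 4 of 15.

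Of 10 other STAT5 target genes, 8 were tested, 1 passed as higher and 1 as lower, against 2.75% and 4.05% of all tested genes, and the median log2 fold change was 0.17. ID1, an inhibitor of basic helix-loop-helix factors, rose from 78.0 ± 0.699 to 105 ± 20.7 CPM (SD, n = 3 each; 0.43, SE 0.11, adjusted p 0.0308). TFRC, the transferrin receptor, fell from 818 ± 11.2 to 673 ± 4.69 CPM (-0.28, SE 0.07, adjusted p 0.0183). With the block 3 of 8 passed as higher and 1 as lower, against 7.43% and 9.62% of genes. PIM3, the third PIM kinase, was at 49.3 to 52.8 CPM under DMSO and 53.2 to 60.1 under rapamycin and did not pass (log2 fold change 0.15, adjusted p 0.317).

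Of 15 feedback and target genes of ERK, the kinase downstream of RAS, 14 were tested, with 1 higher and 1 lower, against 2.75% and 4.05% of all tested genes, the median log2 fold change being -0.14. EGR1, an immediate early transcription factor, rose from 136 ± 23.4 to 202 ± 24.9 CPM (SD, n = 3 each; 0.57, SE 0.11, adjusted p 0.00649), and FOSL1, a subunit of AP-1, fell from 43.2 ± 2.98 to 29.3 ± 1.81 CPM (-0.56, SE 0.10, adjusted p 0.00259). With the NT sgRNA their log2 differences were 0.50 and -0.60.

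Of 18 other BCL2 family genes, 15 were tested, 1 passed as higher and 0 as lower, against 2.75% and 4.05% of all tested genes, and the median log2 fold change was 0.04. BCL2L11, which encodes the pro-apoptotic protein BIM, rose from 31.2 ± 1.36 to 40.4 ± 5.27 CPM (SD, n = 3 each; 0.37, SE 0.10, adjusted p 0.0411). With the block 2 of 13 passed as higher and 1 as lower, against 7.43% and 9.62% of genes.

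The calls on EGR1 and FOSL1 held under 21 of 21 alternatives, and those on the 6 other named genes that passed did not. CRKL, CRK, PTPN11, ID1, TFRC and BCL2L11 each lost their call without HBG1 sgRNA DMSO replicate 2, without DMSO replicate 3 and without rapamycin replicate 3 (adjusted p 0.0576 to 0.206), settings that also cut the calls over all genes from 1609 to between 664 and 749. Their log2 fold changes moved less: CRKL was at -0.27 to -0.28 in these 3 settings, TFRC at -0.27 to -0.29, and BCL2L11, which moved most, at 0.26 to 0.36. CRK (0.0865), PTPN11 (0.10) and ID1 (0.0805) also lost it without rapamycin replicate 1, ID1 without DMSO replicate 1 (0.0569), BCL2L11 without rapamycin replicate 2 (0.0543), and PTPN11 and BCL2L11 without either NT rapamycin library (0.0527 to 0.0637). CRK (0.0523) and PTPN11 (0.0749) lost it with upper-quartile scaling, PTPN11 on the 6 HBG1 sgRNA libraries alone without a block (0.0670), and ID1 without both HBG1 sgRNA replicate 1 libraries (0.0659). With the NT sgRNA the log2 differences were -0.30 for CRKL, -0.10 for CRK and -0.13 for PTPN11. They were 0.26 for ID1, -0.13 for TFRC and 0.51 for BCL2L11, all with no replicate check.

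**Figure D4:**
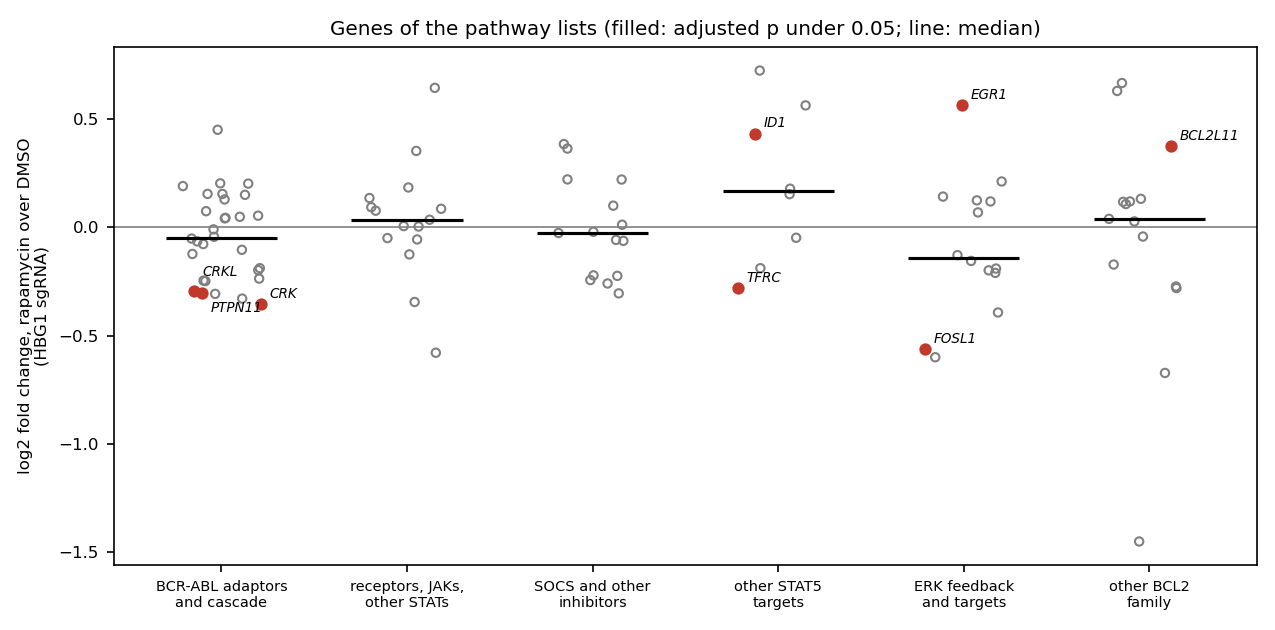
Log2 fold change of rapamycin over DMSO with the HBG1 sgRNA (vertical axis) for the tested genes of 6 pathway lists, with genes at an adjusted p under 0.05 filled and named and a line at each list's median. CRKL, CRK, PTPN11, TFRC and FOSL1 lie below 0, and ID1, EGR1 and BCL2L11 above it.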

How the data were processed

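The authors deposited raw read counts, as whole numbers, in 1 table with a row per Ensembl gene. Per the submitters' processing notes, STAR 2.7.3a, featureCounts, Subread 2.0.0, R 4.1.2, limma 3.34.9, edgeR 3.24.0 and GRCh38 (hg38) were named; their roles, the strand setting and the handling of reads that map to several places are not given in the sources used here. Per the labels' protocols, RNA was selected with poly-T beads and libraries made with NEBNext Ultra. Of 58347 IDs, 58039 (99.47%) matched GENCODE 29, which gave symbols, positions and exon lengths.

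Counts were tested with edgeR 4.0.16 in R 4.3.3: filterByExpr at a minimum count of 10, TMM (factors 0.977 to 1.02), 1 quasi-likelihood fit over 9 libraries with 1 mean per group, Benjamini-Hochberg adjustment, threshold 0.05. SE is the log2 fold change over the square root of F. Scripts were tested on simulated data. NT rapamycin against the single NT DMSO library has fold changes only. Groups came from the sample titles. Members and lists were chosen with earlier results of these data known. Named list genes were up to 4 called with the largest change, or else that of lowest p; likeness was computed for the 3 members of lowest p, among genes whose mean log2 CPM was 1 or more. MAPKAPK3, SOCS2-AS1 and ABALON were named for their overlap. Some cell type markers are not reported here.

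Pairing was checked over 11498 genes: deviations of same-numbered HBG1 sgRNA libraries correlated at 0.553, 0.278 and 0.231, all above 0.1. The pairing rests on this correlation, since the labels give the shared numbers but no shared day or culture. Replicate 1 stood apart, and replicates 2 and 3 also correlated when crossed (0.194 and 0.258), so the check does not show how these are paired. No 2 replicates were alike within sampling noise (chi-square per gene 4.64 to 17.1). Alternatives used DESeq2 1.42.0, limma 3.58.1, other scalings and filters, blocks and left-out libraries.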

Additional observations from a re-analysis of the deposited data

How the results depend on the processing

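In the rapamycin comparison of the HBG1 sgRNA libraries, 1609 genes passed (650 higher, 959 lower). Upper-quartile scaling turned this split to 819 higher and 673 lower. With the replicate block the 6 HBG1 sgRNA libraries gave 3441 genes, and 1377 when fitted without the block. The additive model gave 3263 and the replicate block within each guide, chosen after seeing the data, gave 3547. Leaving out single libraries gave 664 (HBG1 sgRNA DMSO replicate 2) to 1731, with 693 without HBG1 sgRNA rapamycin replicate 3 and 749 without HBG1 sgRNA DMSO replicate 3. The causes were not tested.

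Among the members the block on the 6 HBG1 sgRNA libraries made BCL2L1 and MCL1 pass and changed no other call, whereas with the block over all 9 libraries (2187 genes) neither passed (adjusted p 0.104 and 0.0833). BCL2L1 also passed in the additive model (adjusted p 0.0410), and both passed with the block within each guide (0.0294 and 0.0101). Directions turned for 3 members that did not pass. Over left-out libraries BCR ran from -0.264 to 0.0073, STAT5A from -0.081 to 0.018, the BCR to ABL1 log2 ratio from -0.105 to 0.042 (all 3 highest without HBG1 sgRNA rapamycin replicate 1), and SOCS2 from -0.056 (without HBG1 sgRNA rapamycin replicate 3) to 0.107, with -0.041 without HBG1 sgRNA DMSO replicate 1. STAT5A was at 0.014 with upper-quartile scaling and SOCS2 at -0.036 in the additive model. The other 7 members kept their direction under 21 of 21 alternatives.

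Between guides 7 genes passed, with 91 under no filter, 21 with the replicate block, 37 without both HBG1 sgRNA replicate 1 libraries (chosen after seeing the data), 13 in DESeq2 and 3 (without NT rapamycin replicate 1) to 8 over left-out libraries. For the interaction 1 gene passed, with 0 in DESeq2 and at a minimum count of 50, 3 in limma-voom, 8 under no filter, 3 with the replicate block over 9 libraries, 5 with the block within each guide, 4 without both replicate 1 libraries and 0 to 4 over left-out libraries. The single NT DMSO library limits both the interaction and the NT values.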

Other observations

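PIM3, named here after its values were seen, differed more between guides under rapamycin than PIM1 (log2 difference 0.07) or PIM2 (0.05), though not in DMSO (-0.12, against -0.14 for each). Under rapamycin it stood at 58.0, 60.1 and 53.2 CPM with the HBG1 sgRNA and at 43.3 and 46.6 CPM with the NT sgRNA, and in DMSO at 51.9, 49.3 and 52.8 CPM against 55.7 CPM. The log2 difference under rapamycin was 0.35 (SE 0.09, unadjusted p 0.00212) and did not pass over all genes (adjusted p 0.773, edgeR). The rapamycin change differed between guides by 0.46 on the log2 scale (unadjusted p 0.00694), which did not pass either (adjusted p 1.00).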
